A study of Homo sapiens with 12 samples.

Results

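The comparison set 3 arrays of phorbol ester treated cells against 3 arrays of solvent treated cells, which are 6 of the 12 arrays of the series. All 6 came from U937, an established human monocytic cell line derived from a lymphoma, transduced with an empty vector. Logarithmically growing cultures received TPA (12-O-tetradecanoylphorbol-13-acetate) at 50 ng/ml or an equal amount of its solvent, ethanol, and RNA was taken at 24 h. The other 6 arrays held the same 2 treatments in U937 cells transduced with the transcription factor EVI1, and they enter here through the shared estimate of spread and where a difference between the populations is stated. The arrays were chosen by their titles, and the series' design text calls the 3 arrays of a group biological replicates without saying whether the transductions were separate, so p-values measure the spread between these arrays.

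TPA stands in for diacylglycerol, the lipid second messenger that activates protein kinase C and RasGRP proteins. In U937 and related lines it stops division and makes the cells adhere and take on macrophage features, and the line has long served as a model of that step. A macrophage differs from a dividing leukaemia blast in what it builds as well as in its surface: it makes little new DNA, handles engulfed lipid, iron and amino acids, and acidifies its vesicles with proton pumps. The results below follow these functions through metabolism, transport, receptors, chromatin, non-coding RNA, the RNA and protein machinery, and signalling.

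Expression is given as log2 RMA values, where 1 unit is a 2-fold step. Each of 19775 genes was represented by its brightest probe set that is assigned to 1 gene. Differences are TPA minus ethanol with the standard error from limma (n = 3 arrays a group), and a gene is said to have risen, fallen or changed where its limma p-value, adjusted by Benjamini-Hochberg over all genes, was below 0.05. By that rule 8535 genes changed, which is 43.2% of those tested; 4094 rose (20.7%) and 4441 fell (22.5%). A difference of at least 1 was reached by 1467 risers (7.42%) and 1592 fallers. The median difference over all genes was 0.02, and 10854 genes (54.9%) had a 95% interval that lay within 0.5 of no difference. Medians of the 6 arrays lay between 5.07 and 5.11, and a group mean below 5.07 is treated as not shown to be above background, so that a difference from it has an uncertain size. The values of the groups did not overlap in 9944 genes (50.3%), and the genes given below with their 3 ethanol and 3 TPA values are among these unless stated.

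The arrays separated by treatment. Correlations over genes were 0.9964 to 0.997 among the ethanol arrays, 0.9946 to 0.9952 among the TPA arrays and 0.941 to 0.9471 between the groups. Of 20 measured myelomonocytic markers 12 rose and 7 fell, and in the lymphoid, erythroid and epithelial or fibroblast lists 1 of 9, 2 of 5 and 1 of 10 members changed. PAX5, a B cell transcription factor, read 7.27, 7.55 and 7.16 with ethanol and 5.14, 4.70 and 4.73 with TPA. KLF1, an erythroid transcription factor named after its values were seen, read 5.98, 5.82 and 6.13 with ethanol and 4.63, 4.90 and 4.68 with TPA, and fell by 1.24 ± 0.17. HBB, the other erythroid marker that changed, also named after its values were seen, rose by 0.48 ± 0.12. The erythroid markers AHSP, EPOR and ALAS2 were not called. The gap between the 3' and 5' control probe sets of ACTB, a sign of RNA quality, was 1.78, 1.85 and 1.72 with ethanol and 1.17, 1.64 and 1.28 with TPA (exact permutation test, two-sided p = 0.1, the smallest that 3 against 3 arrays can give). Its part in the results was not tested. The corresponding GAPDH gap gave an exact permutation p of 0.6.

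**Figure D1:**
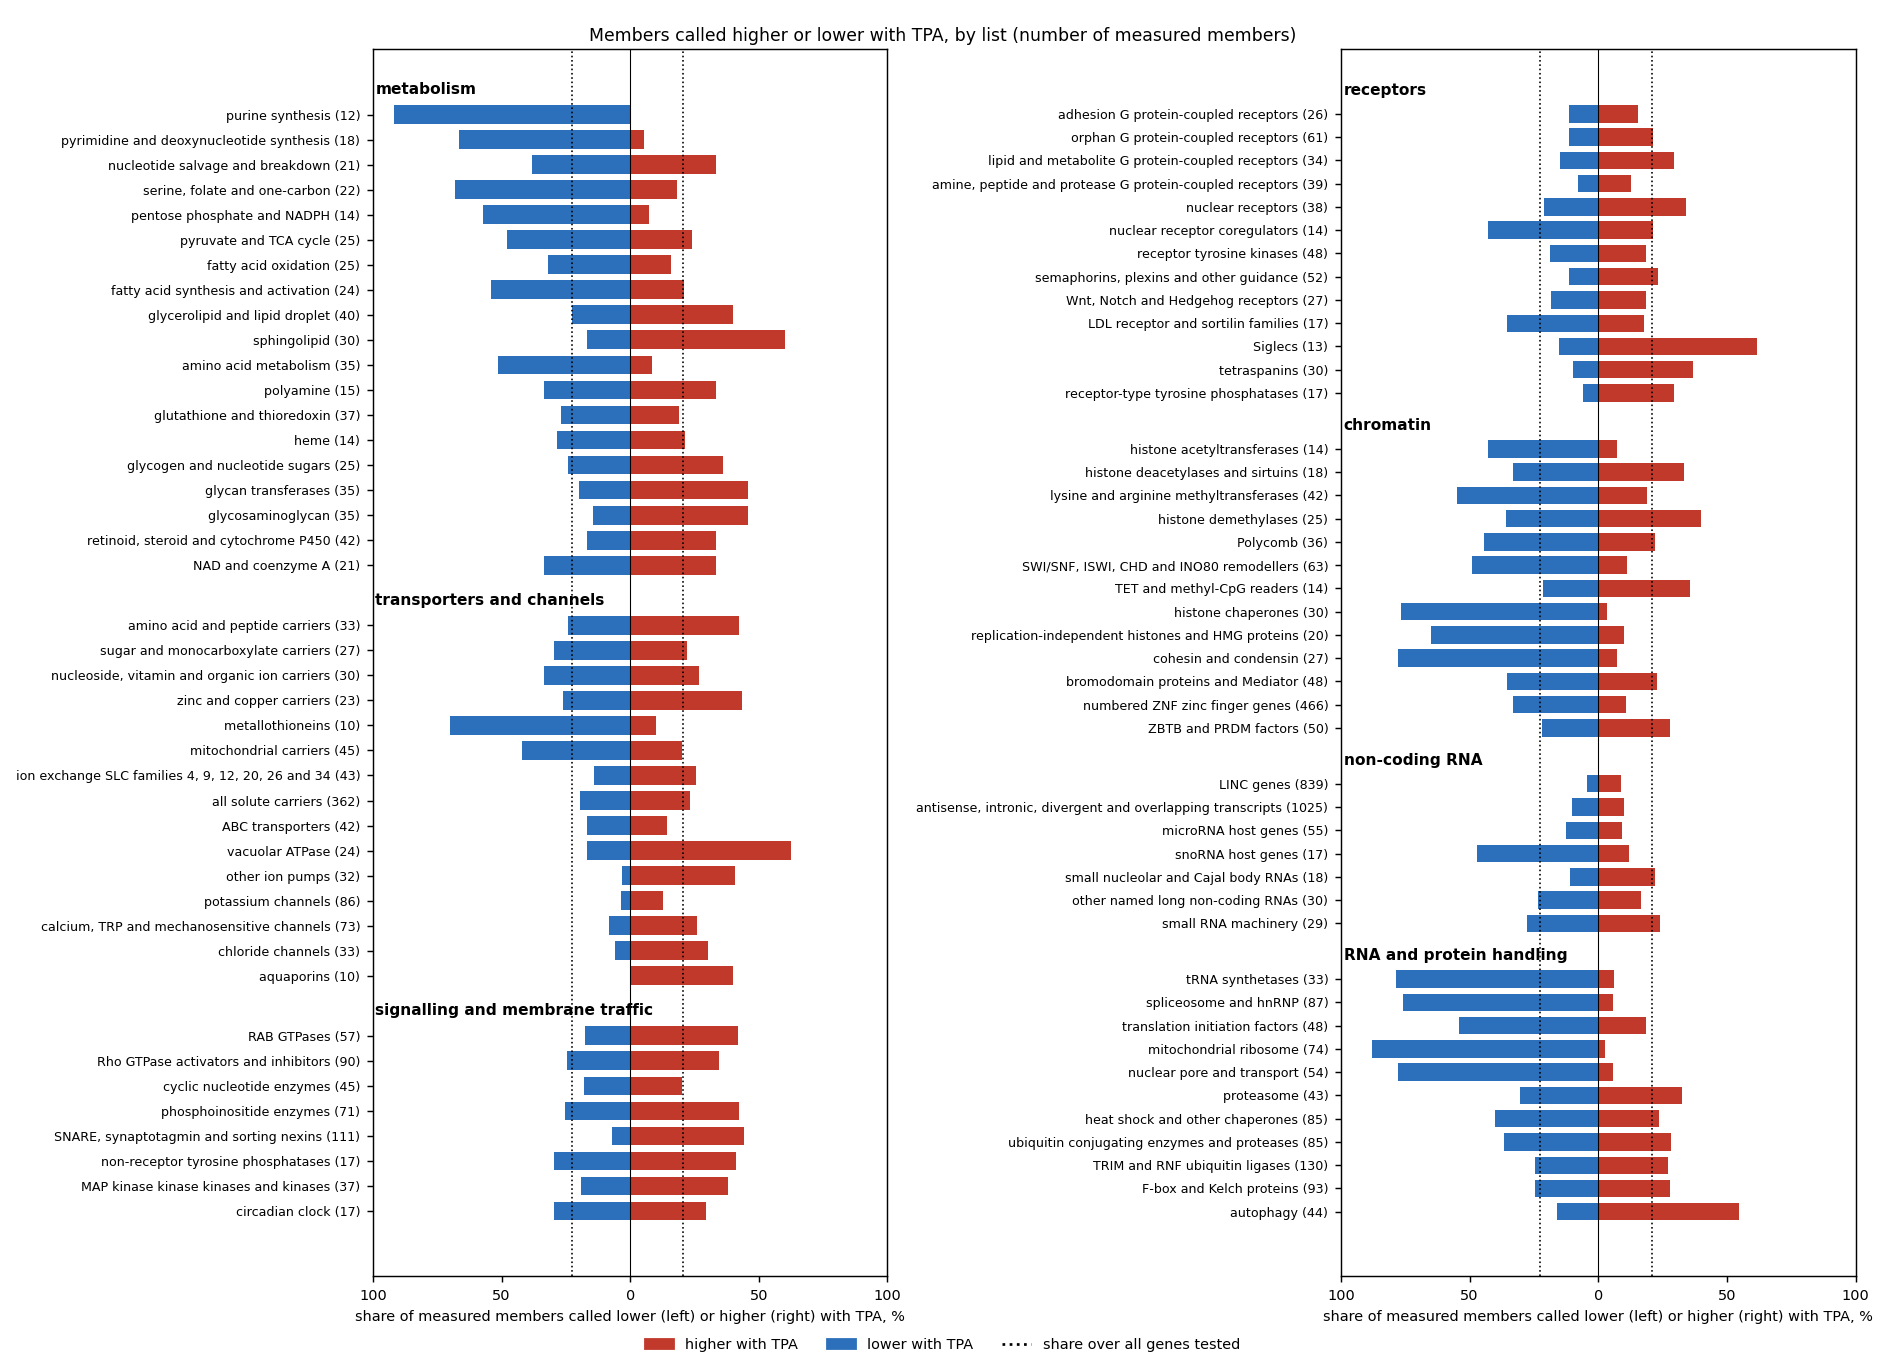
Share of the measured members of each of the 86 lists that were called higher (red, to the right) or lower (blue, to the left) with TPA than with ethanol, in percent, with the number of measured members in brackets; dotted lines mark the shares over all genes tested, 20.7% higher and 22.5% lower. Bars of nucleotide synthesis, chromatin assembly, splicing, nuclear transport and the mitochondrial ribosome extend mainly to the left, and those of vacuolar ATPase, Siglecs, sphingolipid and autophagy genes mainly to the right.

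Of 490 measured members of the metabolism lists 142 rose and 170 fell, or 63.7% against 43.2% of all genes. These genes are brighter than most, and with genes below the median level left out before the fit the shares were 78.5% and 73.7%; the difference was not tested. Their median difference was -0.03. The lists moved apart: falls outnumbered rises in nucleotide synthesis, in serine, folate and one-carbon metabolism and in amino acid metabolism, and rises outnumbered falls among sphingolipid, glycan and glycerolipid genes.

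Purine synthesis fell along almost its whole length. The pathway builds the purine ring on phosphoribosyl pyrophosphate and ends in AMP and GMP, and 11 of its 12 measured genes fell, with none higher and a median difference of -1.69. The PRPS enzymes make the ribose donor; PRPS2 fell by 2.33 ± 0.09 and PRPS1 by 1.17 ± 0.09. PPAT, which commits the pathway, read 9.91, 10.15 and 10.08 with ethanol and 7.89, 7.92 and 7.72 with TPA; 2 of its 3 probe sets fell, and the remaining dimmer probe set differed by 0.17 (limma adjusted p = 0.373). Among the ring-building enzymes PFAS fell by 2.72 ± 0.12, PAICS by 2.57 ± 0.09, GART by 1.13 ± 0.09, ADSL by 1.13 ± 0.08 and ATIC by 1.09 ± 0.08. Every one of these genes was lower in each TPA array than in any ethanol array.

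The branch to GMP held the steepest purine fall. IMPDH2, the inducible IMP dehydrogenase and the slow step of guanine nucleotide synthesis, read 12.60, 12.44 and 12.71 with ethanol and 9.75, 9.29 and 9.52 with TPA, a fall of 3.06 ± 0.12 or 8.36-fold (limma adjusted p = 9.74e-11). Its paralog IMPDH1 fell by 0.86 ± 0.08, and GMPS, which completes GMP, by 2.34 ± 0.08. ADSS1, a muscle-type enzyme of the AMP branch, was the 1 member without a change, at -0.11 ± 0.11 with a 95% interval from -0.35 to 0.13.

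Pyrimidine and deoxynucleotide synthesis followed, with 12 of 18 members lower and 1 higher. TYMS, the thymidylate synthase that supplies dTMP, read 13.10, 13.08 and 13.06 with ethanol and 8.99, 7.57 and 7.51 with TPA. RRM2, the regulated subunit of ribonucleotide reductase, read 12.68, 12.47 and 12.64 and 8.97, 7.48 and 7.26. In both genes TPA replicate 1 stood above the other TPA arrays while staying below every ethanol array, and they fell by 5.06 ± 0.46 and 4.69 ± 0.48. The riser was TK2, the mitochondrial thymidine kinase, at 1.24 ± 0.18. In salvage and breakdown 7 of 21 genes rose and 8 fell. UPP1, which cleaves uridine, read 7.15, 6.89 and 7.06 with ethanol and 10.24, 10.23 and 10.18 with TPA, and AMPD3, which deaminates AMP, rose by 2.59 ± 0.11, whereas the deoxycytidine kinase DCK fell by 1.49 ± 0.12.

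Of 22 serine, folate and one-carbon genes 15 fell and 4 rose. The serine pathway enzymes PHGDH, which opens it, and PSAT1, the following transaminase, fell by 2.91 ± 0.17 and 2.87 ± 0.13. PHGDH read 9.52, 9.75 and 9.77 with ethanol and 6.96, 6.56 and 6.79 with TPA. The cytosolic formyltetrahydrofolate dehydrogenase ALDH1L1, which withdraws one-carbon units, rose by 0.83 ± 0.09. In pentose phosphate and NADPH metabolism 8 of 14 genes fell, led by RPIA at -1.87 ± 0.12, and TALDO1 stayed at 0.08 ± 0.10, with a 95% interval from -0.13 to 0.29.

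Amino acid enzymes fell in 18 of 35 cases and rose in 3. ALDH18A1, which opens proline synthesis, fell by 1.70 ± 0.08, and ASS1, which joins citrulline to aspartate on the way to arginine, by 2.23 ± 0.13. A riser was IL4I1, a secreted amino acid oxidase of antigen-presenting cells, which read 5.48, 5.49 and 5.56 with ethanol and 9.01, 9.45 and 9.04 with TPA. It was 12.6-fold higher with TPA (limma adjusted p = 1.97e-11).

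Of 15 polyamine genes 5 rose, 5 fell and 5 were not called. The synthetic enzymes ODC1 and SRM, for putrescine and spermidine, fell by 1.80 ± 0.09 and 2.36 ± 0.11. The acetyltransferases SAT1 and SAT2 rose by 1.74 ± 0.12 and 1.42 ± 0.09; SAT1 acetylates polyamines for breakdown and export. SAT1 read 10.01, 9.90 and 9.88 with ethanol and 11.63, 11.68 and 11.70 with TPA, and ODC1 12.93, 12.88 and 12.94 and 11.25, 11.02 and 11.07. The spermine synthase SMS and the decarboxylase AMD1 were not called: SMS was at 0.03 ± 0.08 (95% interval -0.14 to 0.21) and AMD1 at -0.03 ± 0.09 (95% interval -0.21 to 0.16), and in both the groups overlapped.

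The upstream sequences of a purine and a polyamine gene that fell are shown because both hold the E-box CACGTG, the palindromic site read by MYC and related factors, printed in capitals. They are the 250 bases before the annotated start, 5′ to 3′ on the gene's strand, from RefSeq (GRCh38.p14). ATIC lies on the plus strand of chromosome 2 (chr2:215311809-215312058) and SRM on the minus strand of chromosome 1 (chr1:11060019-11060268).
ATIC: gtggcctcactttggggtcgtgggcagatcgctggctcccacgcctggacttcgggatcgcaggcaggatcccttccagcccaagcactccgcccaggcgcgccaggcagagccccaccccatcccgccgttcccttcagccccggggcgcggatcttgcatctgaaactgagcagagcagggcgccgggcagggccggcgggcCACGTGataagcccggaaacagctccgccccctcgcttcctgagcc
SRM: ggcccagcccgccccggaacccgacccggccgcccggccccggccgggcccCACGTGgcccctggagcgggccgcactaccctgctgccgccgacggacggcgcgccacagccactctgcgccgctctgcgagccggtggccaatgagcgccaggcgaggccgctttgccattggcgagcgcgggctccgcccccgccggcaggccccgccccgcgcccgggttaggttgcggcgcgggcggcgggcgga
The hexamer was found, on either strand, in the upstream 250 bases of 7.73% of 27305 genes with a RefSeq promoter, in 12.9% of the 1337 that fell by at least 1, in 10.4% of the 1197 that rose by at least 1, and in 2 of 11 purine synthesis genes. The AP-1 letters TGANTCA were in 11.4% of the risers, 4.11% of the fallers and 8.06% of all. The E2F letters TTTCCCGC were in 5.09% of the fallers, 1.5% of the risers and 1.7% of all, and TTTGGCGC in 2.39%, 0.835% and 0.681%. All genes with a promoter include genes that were not tested on the arrays, whereas every riser and faller was tested. The share among tested genes was not computed, so the risers and fallers have no like background here. A match describes the letters and does not show that a factor binds there.

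Lipid metabolism changed direction between branches. Fatty acid synthesis and activation held 13 falls and 5 rises among 24 genes; SCD, which desaturates stearate, fell by 2.49 ± 0.20 and the fatty acid synthase FASN by 1.65 ± 0.12. Of 30 sphingolipid genes 18 rose and 5 fell, with a median of 0.58. Among them SMPD1, the acid sphingomyelinase, rose by 1.89 ± 0.09 (0.02 with its brightest probe set of another type, adjusted p = 0.934) and ST3GAL5, which makes the ganglioside GM3, by 2.48 ± 0.11. Of 40 glycerolipid and lipid droplet genes 16 rose and 9 fell. GPAT3, an acyltransferase of triglyceride synthesis, read 5.14, 5.03 and 5.30 with ethanol and 9.85, 10.28 and 10.13 with TPA, and the lysosomal phospholipase PLA2G15 rose by 3.04 ± 0.16. HILPDA, a lipid droplet protein that inhibits lipolysis, fell by 1.92 ± 0.10.

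In the other metabolic lists single enzymes moved furthest. HMOX1, which degrades heme, read 7.46, 7.34 and 7.57 with ethanol and 11.85, 11.54 and 11.68 with TPA (18.8-fold, limma adjusted p = 1.16e-11), and BLVRB, a biliverdin and flavin reductase, rose by 1.59 ± 0.13, while the heme list as a whole had 3 rises and 4 falls among 14. DHRS3, a retinaldehyde reductase, read 5.99, 5.1 and 5.69 with ethanol and 9.89, 10.04 and 9.93 with TPA. STAR, the cholesterol carrier of steroidogenic mitochondria, went the other way, from 10.20, 10.20 and 10.00 to 7.02, 6.69 and 6.16. NAMPT, which feeds NAD salvage, rose by 1.03 ± 0.10, and the NAD glycohydrolase CD38 fell by 2.01 ± 0.18 to below background. Among glycan genes the heparan sulfate sulfotransferase HS3ST2 rose by 3.32 ± 0.45 and FUT4, which completes the Lewis x (CD15) epitope, fell by 2.10 ± 0.10.

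**Figure D2:**
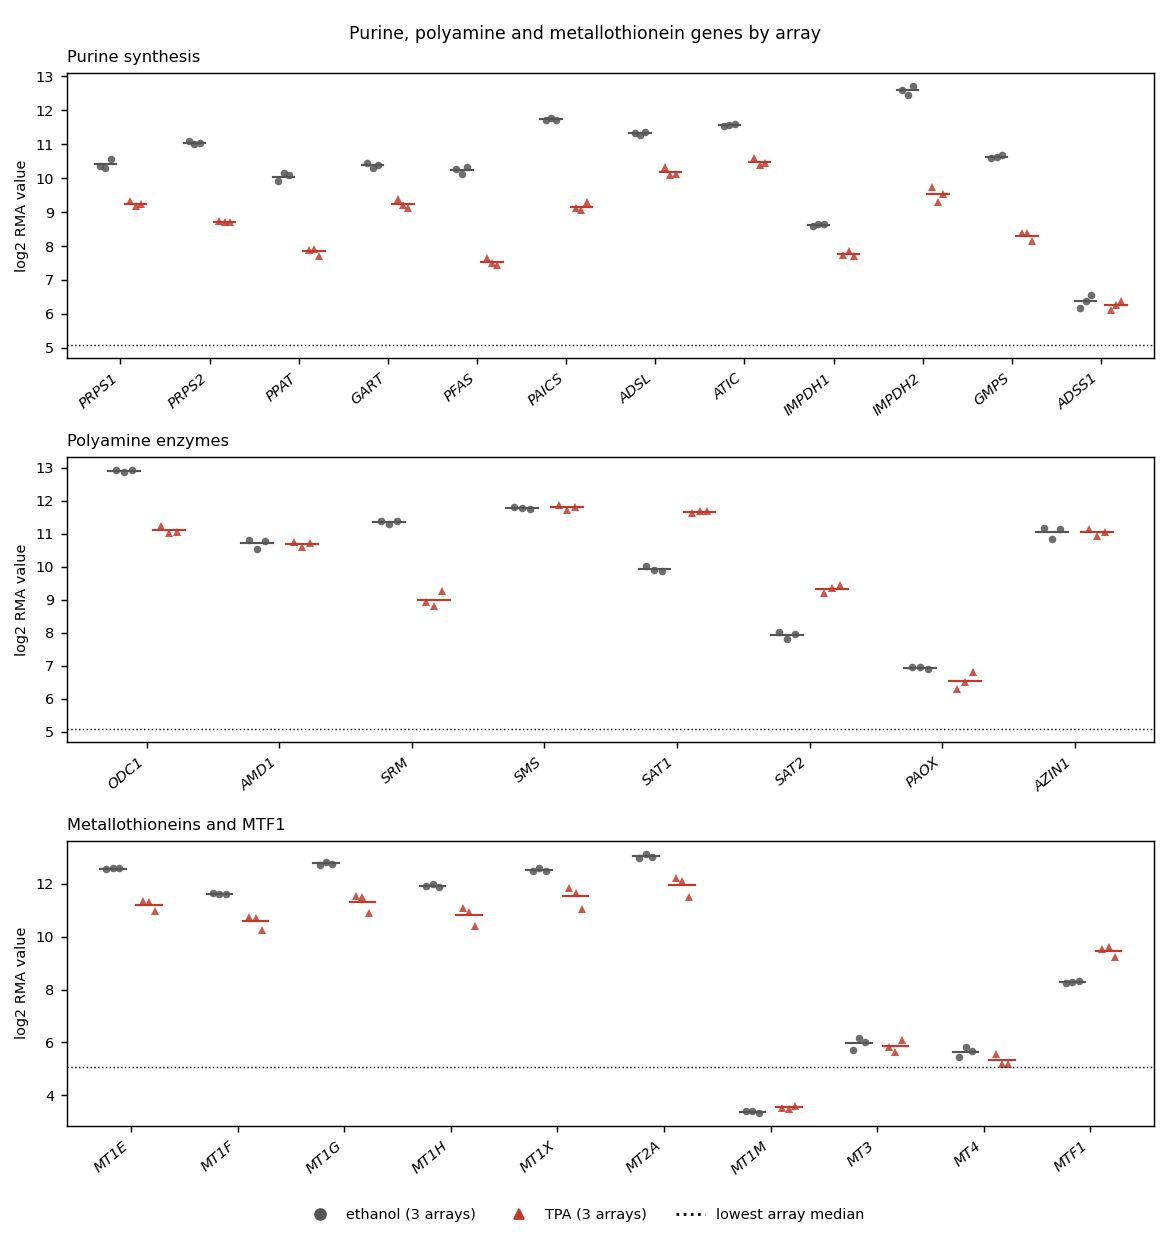
Log2 RMA values of each ethanol array (grey circles) and TPA array (red triangles) of the empty vector cells for purine synthesis, polyamine and metallothionein genes; short lines are group means (n = 3) and the dotted line is the lowest array median, 5.07. The purine genes other than ADSS1 are lower in all TPA arrays, ODC1 and SRM fall while SAT1 and SAT2 rise, and the metallothioneins above 10 fall while MTF1 rises.

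Metallothioneins are small cysteine-rich proteins that bind zinc and copper. Of the 9 metallothionein genes measured, 7 fell and none rose. MT2A, the most widely used member, read 12.97, 13.15 and 13.04 with ethanol and 12.22, 12.12 and 11.49 with TPA, and MT1E read 12.55, 12.62 and 12.59 and 11.34, 11.31 and 10.98. TPA replicate 3 was lower than the other TPA arrays for both. The smallest fall was that of MT4, by 0.33 ± 0.12, whose groups overlapped and whose limma adjusted p of 0.0398 became 0.0701 when only the 6 arrays were fitted. MT1G fell by 1.46 ± 0.15, but its other probe set gave 0.13 (adjusted p = 0.381). The probe sets behind 6 of the 7 falls carry the suffix that marks probes shared with other sequences, so these genes are not independent readings. MTF1, the zinc sensor that drives metallothionein transcription, rose by 1.17 ± 0.10.

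MT1X, which fell by 1.00 ± 0.15, is shown as an example of a metallothionein promoter. Its upstream 250 bases on the plus strand of chromosome 16 (chr16:56682220-56682469, GRCh38.p14, RefSeq) hold 4 matches to the metal response element core TGCNCNC, 3 as written and 1 on the opposite strand, all in capitals.
MT1X: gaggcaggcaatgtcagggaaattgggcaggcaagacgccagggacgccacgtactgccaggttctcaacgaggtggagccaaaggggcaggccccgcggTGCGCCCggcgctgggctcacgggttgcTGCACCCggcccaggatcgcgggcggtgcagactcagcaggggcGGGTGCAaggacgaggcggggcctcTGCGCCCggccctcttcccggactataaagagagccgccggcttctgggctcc
The 7 letters are common: 53% of all genes with a promoter, tested on the arrays or not, held a match on either strand. So did 63.8% of the fallers, 62.4% of the risers and 5 of 6 listed metallothionein genes with a promoter.

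Of the 23 zinc and copper carriers 10 rose and 6 fell. SLC31A2, a copper transporter of endosomes and lysosomes, read 7.85, 7.63 and 7.68 with ethanol and 10.85, 10.89 and 11.18 with TPA. ATP7A, the copper pump of the secretory pathway, read 5.38, 5.45 and 5.31 and 7.99, 7.83 and 7.65. All TPA values of both genes exceeded all ethanol values by a wide margin. The zinc importers SLC39A3 and SLC39A4 fell by 1.49 ± 0.08 and 1.08 ± 0.13.

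Transporters and channels as a whole changed in 39.6% of 677 cases, against 43.2% of all genes, with 166 rises and 102 falls. With genes below the median level left out the shares were 74% and 73.7%. The widest rise was in cationic amino acid exchange. SLC7A7, the light chain of system y+L, read 6.0, 6.05 and 6.07 with ethanol and 11.70, 11.96 and 11.68 with TPA, a 53.5-fold difference (limma adjusted p = 2.72e-13). The peptide carrier SLC15A2 fell by 2.29 ± 0.14. Amino acid and peptide carriers held 14 rises and 8 falls among 33.

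The hexose carriers moved in opposite directions. SLC2A3, the high-affinity glucose carrier GLUT3, read 6.82, 6.43 and 6.68 with ethanol and 9.69, 9.35 and 9.84 with TPA. SLC2A5, the fructose carrier GLUT5, read 10.11, 10.04 and 9.98 and 7.45, 6.35 and 5.69. For SLC2A5 TPA replicate 1 stood above the other TPA arrays and still below every ethanol array. SLCO2B1, an organic anion carrier, rose by 3.97 ± 0.20, SLC17A5, the lysosomal sialic acid exporter, by 2.27 ± 0.13, and the reduced folate carrier SLC19A1 fell by 2.0 ± 0.09. Mitochondrial carriers fell more often than they rose (19 and 9 of 45); SLC25A10, the dicarboxylate carrier, fell by 2.47 ± 0.15, and SLC25A3, which brings phosphate into the matrix, stayed at 0.03 ± 0.08 (95% interval -0.14 to 0.20). ABC transporters changed in 13 of 42 cases, and 21 of the 42 lay below background in both groups.

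Most proton pump genes rose. The vacuolar ATPase acidifies endosomes, lysosomes and, at the ruffled border of osteoclasts, bone; 15 of its 24 measured genes rose and 4 fell, with a median of 0.82 against 0.02 over all genes. TCIRG1, the a3 subunit of lysosomes and of the osteoclast pump, read 7.68, 7.76 and 7.40 with ethanol and 10.28, 10.72 and 10.58 with TPA. ATP6V0D2, the d2 subunit of osteoclasts and macrophages, read 3.98, 4.37 and 4.30 and 7.23, 6.55 and 7.51; its ethanol values lay below background. The e2 subunit gene ATP6V0E2 fell by 1.11 ± 0.10. Of 32 genes listed as other ion pumps, among them phospholipid flippases such as ATP10D, 13 rose and 1 fell. ATP1B1, a sodium pump subunit, rose by 2.93 ± 0.15.

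Most osteoclast markers moved in the same direction as these pump genes, and ATP6V0D2 is counted in both lists. Of 6 measured, 5 rose: DCSTAMP, the fusion protein of osteoclasts and giant cells, from 3.46, 3.62 and 3.22, below background, to 8.14, 8.35 and 7.83; TNFRSF11A, the receptor RANK, by 3.00 ± 0.21, also from below background; and ATP6V0D2, CTSK and NFATC1, of which CTSK and NFATC1, named after their values were seen, rose by 1.66 and 1.24. The ethanol values of CTSK, 4.81, 4.83 and 4.38, also lay below background. CALCR, the calcitonin receptor, was at 0.23 ± 0.12 and not called. The megakaryocyte list had 1 rise among 7, VWF, from 5.02, 4.68 and 4.98, below background, to 7.47, 7.65 and 7.72.

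Most channel genes were below background or not called, with a few wide exceptions. Potassium channels changed in 14 of 86 cases, and 49 lay below background in both groups. KCNN4, the calcium-activated potassium channel of macrophages and red cells, read 6.78, 6.92 and 6.95 with ethanol and 10.62, 10.84 and 10.86 with TPA (14.8-fold, limma adjusted p = 4.54e-12). KCNK5, an acid-sensitive leak channel, went from 8.70, 8.68 and 8.89 to 6.26, 5.84 and 5.92. The ATP-gated channels P2RX7 and P2RX4 rose by 3.98 ± 0.20 and 3.49 ± 0.14; P2RX7, which opens at the high ATP of damaged tissue, read 7.64, 6.92 and 7.5 with ethanol and 11.37, 11.24 and 11.40 with TPA. CACNA2D3, an auxiliary calcium channel subunit, fell by 3.16 ± 0.26. AQP9, a channel for water and glycerol, rose from 4.99, 4.88 and 5.07, at or below background, to 8.71, 8.98 and 8.15.

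**Figure D3:**
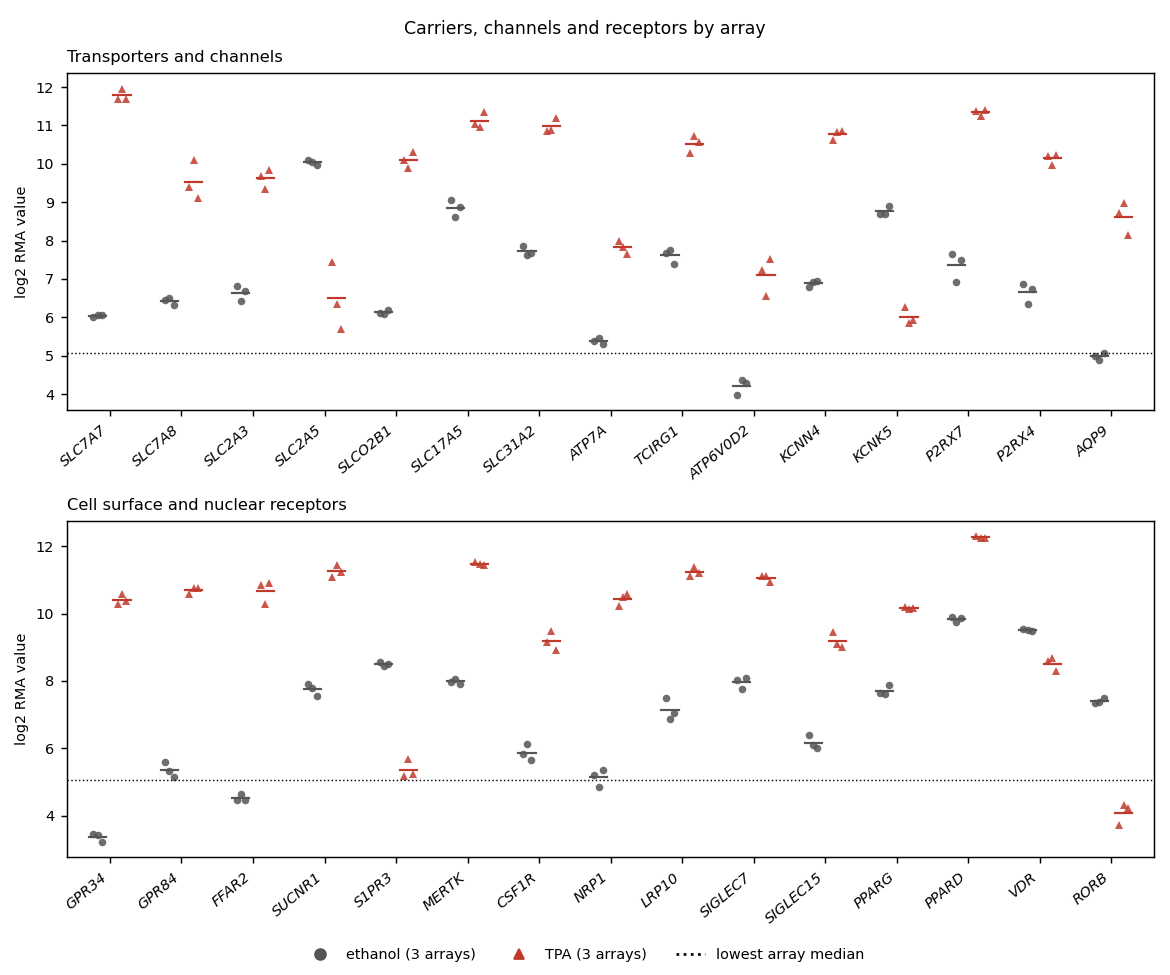
Log2 RMA values of each ethanol array (grey circles) and TPA array (red triangles) of the empty vector cells for carriers, channels and pump subunits (top) and for receptors (bottom); short lines are group means (n = 3) and the dotted line is the lowest array median, 5.07. SLC2A3 rises while SLC2A5 falls, and GPR34 and FFAR2 rise from below the dotted line to above 10.

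Among 416 receptor genes were 101 rises and 64 falls, so that 39.7% changed against 43.2% of all genes (72.6% and 73.7% without genes below the median level). The widest rises were those of receptors for lipids and metabolites. GPR34, a receptor for lysophosphatidylserine, read 3.46, 3.43 and 3.21 with ethanol and 10.28, 10.59 and 10.37 with TPA. FFAR2, the short-chain fatty acid receptor, read 4.46, 4.65 and 4.45 and 10.84, 10.30 and 10.91. Both sets of ethanol values lay below background, so the size of the gain is uncertain, and the groups lay far apart. GPR84, a receptor of activated myeloid cells for medium-chain fatty acids, rose by 5.35 ± 0.24, and SUCNR1, the succinate receptor, from 7.91, 7.78 and 7.56 to 11.08, 11.45 and 11.24. S1PR3, a sphingosine 1-phosphate receptor, fell from 8.56, 8.45 and 8.5 to 5.17, 5.68 and 5.22.

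Adhesion receptors of the G protein-coupled class were uneven: ADGRA2 fell by 3.66 ± 0.14, ADGRA3 fell by 3.09 ± 0.11, and ADGRE2 rose by 2.80 ± 0.11. In that list 4 of 26 rose and 3 fell, or 26.9% against 43.2% of all genes. HRH1, the histamine H1 receptor, rose by 2.93 ± 0.17, in a list of amine, peptide and protease receptors in which 31 of 39 genes were not called. Among kinases, MERTK, the receptor by which macrophages take up apoptotic cells, read 7.98, 8.05 and 7.92 with ethanol and 11.52, 11.46 and 11.44 with TPA; the brightest of its other probe sets, of another type, gave 0.16 (adjusted p = 0.167). CSF1R, the M-CSF receptor, rose by 3.33 ± 0.15. TYRO3, the paralog of MERTK, went the other way, from 8.67, 8.46 and 8.60 to 7.08, 7.41 and 7.17.

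Guidance receptors held 12 rises and 6 falls among 52 genes, and the LDL receptor and sortilin families 3 rises and 6 falls among 17. The shares that changed were 34.6% and 52.9%, against 43.2% of all genes. NRP1, the co-receptor of semaphorins and VEGF, read 5.21, 4.85 and 5.34 with ethanol and 10.23, 10.49 and 10.58 with TPA. LRP10, a sorting receptor of the LDL receptor family, read 7.48, 6.87 and 7.05 and 11.11, 11.37 and 11.22, while its relatives LRP11 and LRP3 fell by 1.62 ± 0.11 and 1.54 ± 0.11. FZD7, a Wnt receptor, rose by 3.34 ± 0.12, and the Notch ligand JAG1 fell by 2.14 ± 0.17. Siglecs, which read sialic acids and mostly carry inhibitory motifs, had 8 rises and 2 falls among 13, with a median of 1.44. SIGLEC7 read 8.04, 7.76 and 8.10 with ethanol and 11.13, 11.13 and 10.94 with TPA, and SIGLEC15, a regulator of osteoclast fusion, rose by 3.03 ± 0.16; SIGLEC6 and SIGLEC10 fell by 0.51 ± 0.12 and 0.60 ± 0.15.

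Of 38 measured nuclear receptors, ligand-controlled transcription factors, 13 rose and 8 fell, and 11 lay below background in both groups. PPARG, the lipid sensor of macrophages and fat cells, read 7.63, 7.61 and 7.88 with ethanol and 10.21, 10.13 and 10.16 with TPA. PPARD read 9.90, 9.75 and 9.87 and 12.31, 12.26 and 12.25, and PPARA stayed at 0.10 ± 0.08 (95% interval -0.08 to 0.28). Their dimer partner RXRA rose by 0.93 ± 0.10. The glucocorticoid receptor NR3C1 rose by 1.56 ± 0.09, while VDR, the vitamin D receptor, fell by 0.99 ± 0.10 and the clock repressor NR1D2 by 1.28 ± 0.16. RORB fell from 7.33, 7.36 and 7.48 to 3.72, 4.31 and 4.21, which is below background. FKBP5, a chaperone of steroid receptors and a glucocorticoid target, fell by 2.14 ± 0.07 from 13.04, 12.98 and 13.11.

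Chromatin genes fell more than they rose: 330 of 846 were lower and 122 higher (53.4% changed, and 72.1% against 73.7% of all genes without those below the median level), with a median of -0.12. The lists tied to replication and mitosis moved furthest. Histone chaperones fell in 23 of 30 cases with a median of -1.43, and cohesin and condensin genes in 21 of 27. MCM2, a replicative helicase subunit that also carries histones, fell from 11.73, 11.66 and 11.82 to 7.59, 6.90 and 7.15, and NCAPH, a condensin subunit, from 10.01, 9.98 and 10.00 to 5.87, 4.80 and 4.58. HMGB2, which bends DNA, fell by 3.42 ± 0.20 (-0.17 with its other probe set, adjusted p = 0.422), and the histone variant H2AX by 2.68 ± 0.09. MACROH2A1, a variant of inactive chromatin, rose by 0.56 ± 0.08.

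Histone and DNA modifying enzymes differed in direction between lists. Of 42 lysine and arginine methyltransferases 23 fell and 8 rose. EZH2, which writes the Polycomb mark on histone H3 lysine 27, read 8.87, 8.61 and 8.71 with ethanol and 5.70, 5.51 and 5.52 with TPA. SUV39H2, which writes the heterochromatin mark on lysine 9, read 9.07, 8.79 and 9.06 and 5.70, 5.63 and 5.58, and NSD2, a lysine 36 methyltransferase, fell by 2.47 ± 0.11. In the Polycomb list CBX2 fell by 2.94 ± 0.13 while PHC2 and JARID2 rose by 1.43 ± 0.12 and 1.34 ± 0.10. Demethylases did not lean to a side, with 10 rises and 9 falls among 25; JMJD1C rose by 1.70 ± 0.10 and KDM1A fell by 1.46 ± 0.11. Of 14 TET and methyl-CpG reader genes 5 rose and 3 fell, with a median of 0.04. TET1, which oxidises methylcytosine, fell from 7.22, 6.82 and 7.0 to 3.84, 4.26 and 3.80, below background.

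Among 14 histone acetyltransferases 6 fell and 1 rose: KAT2B by 1.60 ± 0.10. HAT1, which acetylates newly made histone H4, fell by 1.57 ± 0.11. The 18 deacetylases and sirtuins divided evenly, with 6 rises and 6 falls. HDAC1 was not called and its groups overlapped: it read 11.66, 11.62 and 11.66 with ethanol and 11.67, 11.58 and 11.63 with TPA, with a 95% interval of the difference from -0.17 to 0.13. HDAC2, its partner in the same complexes, read 11.42, 11.41 and 11.41 and 10.38, 10.38 and 10.35. Of class IIa HDAC5 and HDAC9 rose, by 1.15 ± 0.12 and 2.22 ± 0.30, and HDAC4 fell by 0.78 ± 0.10; the ethanol values of HDAC9 lay below background, and 1 of its 5 probe sets rose.

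**Figure D4:**
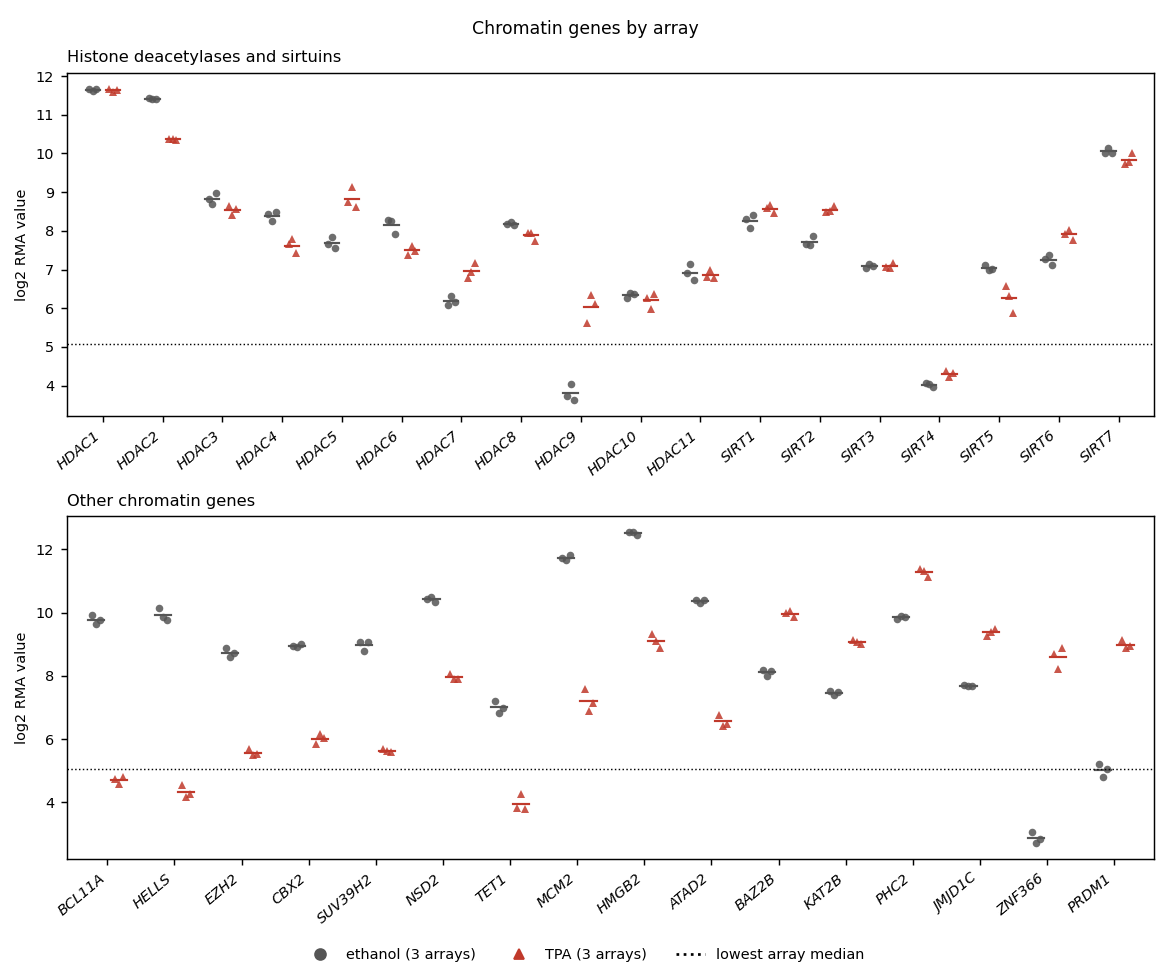
Log2 RMA values of each ethanol array (grey circles) and TPA array (red triangles) of the empty vector cells for all measured histone deacetylases and sirtuins (top) and for leading genes of the other chromatin lists (bottom); short lines are group means (n = 3) and the dotted line is the lowest array median, 5.07. HDAC1 overlaps between the groups while HDAC2 falls, and BCL11A, HELLS and TET1 fall below the dotted line.

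Remodellers and sequence-specific repressors held the steepest changes. HELLS, a helicase needed for DNA methylation of repeats, read 10.15, 9.85 and 9.76 with ethanol and 4.56, 4.17 and 4.28 with TPA. BCL11A, a zinc finger subunit of SWI/SNF complexes and repressor of fetal globin, read 9.92, 9.63 and 9.78 and 4.73, 4.58 and 4.81. Both ended below background, and all 5 probe sets of HELLS and all 4 of BCL11A fell. BAZ2B, a bromodomain protein of ISWI complexes, rose by 1.85 ± 0.09. Of 466 numbered zinc finger genes 154 fell and 50 rose. Against that trend ZNF366, a nuclear protein of dendritic cells, rose from 3.07, 2.71 and 2.83 to 8.69, 8.22 and 8.89, and PRDM1, the repressor Blimp-1, from 5.22, 4.81 and 5.07, at about background, to 9.14, 8.89 and 8.94.

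Non-coding RNAs were rarely called: 196 of 2004 rose and 170 fell, or 18.3% against 43.2% of all genes. Of the 2004, 1398 lay below background in both groups. With genes below the median level left out before the fit, 159 of 260 changed (61.2%, against 73.7% of all genes). Of 839 LINC genes 74 rose and 36 fell, and LINC00702 rose from 2.44, 2.78 and 2.49, below background, to 7.32, 7.19 and 6.80. Small nucleolar RNA host genes fell in 8 of 17 cases and rose in 2. DANCR, which hosts a snoRNA and is known for holding back differentiation, read 10.92, 11.01 and 10.92 with ethanol and 8.57, 8.53 and 8.60 with TPA, and SNHG19 fell by 1.82 ± 0.09.

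Among 55 microRNA hosts or primary transcripts 5 rose and 7 fell, and 34 lay below background. DLEU2, which carries MIR15A and MIR16-1 in an intron, read 9.51, 9.36 and 9.48 with ethanol and 6.48, 5.82 and 6.08 with TPA, a fall of 3.32 ± 0.25 (limma adjusted p = 6.53e-08) that 6 of its 7 probe sets shared. The neighbouring DLEU1 fell by 1.99 ± 0.11. The MIR142 transcript, abundant in blood cells, read 9.28, 9.25 and 9.15 and 8.69, 8.15 and 8.64. LINC-PINT rose by 2.13 ± 0.16, and MIR17HG, the miR-17-92 host, was below background at 2.47, 2.60 and 2.61 and 2.63, 2.62 and 2.46, so nothing can be read from it. The arrays read long transcripts, and the mature microRNAs were not measured.

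The mature sequences carried by DLEU2 and MIR142 are shown because both transcripts fell from levels well above background; they are printed 5′ to 3′ from RefSeq (GRCh38.p14), with the seed, bases 2 to 8, in capitals. On the minus strand of chromosome 13 miR-15a-5p lies at chr13:50049167-50049188 and miR-16-5p at chr13:50049027-50049048. The arms of miR-142 lie on the minus strand of chromosome 17, at chr17:58331283-58331303 (5p) and chr17:58331245-58331267 (3p).
hsa-miR-15a-5p: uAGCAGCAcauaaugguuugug
hsa-miR-16-5p: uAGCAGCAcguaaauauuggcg
hsa-miR-142-5p: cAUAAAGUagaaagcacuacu
hsa-miR-142-3p: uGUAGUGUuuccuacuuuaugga
The 2 products of DLEU2 share the seed AGCAGCA, which 7 mature microRNA names of the table carry, and the 2 arms of MIR142 have different seeds, AUAAAGU and GUAGUGU.

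Antisense, intronic, divergent and overlapping transcripts rose in 101 and fell in 106 of 1025 cases, or 20.2% against 43.2% of all genes. SUGCT-AS1 read 3.14, 3.06 and 3.05 with ethanol, below background, and 9.58, 9.0 and 9.36 with TPA, and ITGB2-AS1 read 5.29, 5.50 and 5.24 and 11.26, 11.09 and 11.02. TMPO-AS1 fell from 7.65, 7.64 and 7.47 to 3.47, 3.72 and 3.69. SUGCT-AS1 and TMPO-AS1 had the widest rise and fall of the list. Set beside the gene each is named after, a comparison added, with the pairs named here, after the values were seen, 317 such transcripts that were above background in a group had a measured partner. In 90 pairs both changed, in the same direction in 66 (33 up, 33 down) and in opposite directions in 24. The integrin gene ITGB2 rose by 2.58 with its antisense transcript and the lamina gene TMPO fell by 3.01 with its own, whereas SUGCT fell by 0.70 against the rise of SUGCT-AS1, and PXN, the focal adhesion gene, rose by 2.29 as PXN-AS1 fell by 2.27. Whether each probe set reads 1 strand only was not tested.

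**Figure D5:**
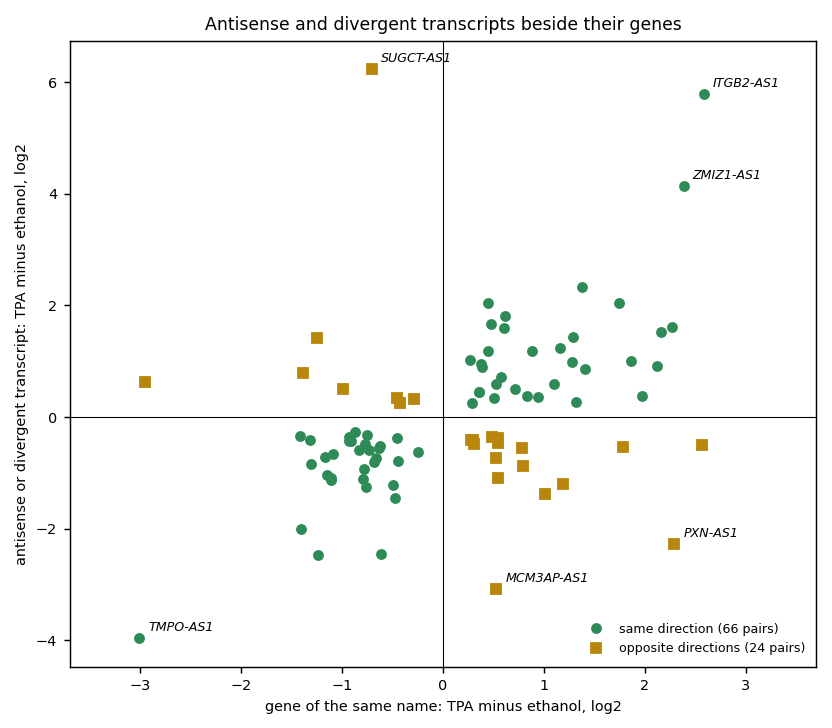
TPA minus ethanol difference (log2) of 90 antisense or divergent transcripts (vertical axis) against that of the gene each is named after (horizontal axis), for pairs in which both changed and the transcript was above background in a group. The 66 pairs of the same direction lie at the lower left and upper right and the 24 of opposite directions in the others. The pair of OIP5-AS1 (-0.33) and OIP5 (-4.86), counted among those of the same direction, lies beyond the left end of the horizontal axis and is not visible.

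RNA and protein handling had the highest share of changed genes among the themes, 68.2% of 776 against 43.2% of all genes. There were 365 falls and 164 rises, with a median of -0.20. Without genes below the median level the shares were 81.3% and 73.7%. Of 74 mitochondrial ribosome genes 65 fell, as did 26 of 33 tRNA synthetases, 66 of 87 spliceosome and hnRNP genes, and 42 of 54 nuclear pore and transport genes. Most of these falls were modest: the medians were -0.69, -0.75, -0.66 and -0.90. CSE1L, the exporter of importin alpha, fell from 11.68, 11.77 and 11.83 to 9.63, 9.38 and 9.34, and MRPL12, a protein of the large mitochondrial subunit, by 1.89 ± 0.09. MRPL52, of the same subunit, went the other way, from 9.78, 9.74 and 9.88 to 11.82, 11.79 and 11.80, in both of its probe sets. HNRNPLL, which regulates CD45 splicing, rose from 3.72, 4.44 and 4.39, below background, to 8.94, 8.39 and 7.69.

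Protein breakdown was divided. Of 43 proteasome genes 14 rose and 13 fell, and 26 had a 95% interval within 0.5 of no difference. The core subunit PSMA1 rose by 0.78 ± 0.07, and the assembly chaperones PSMG1 and PSMG4 fell by 2.05 ± 0.11 and 2.38 ± 0.11. Among 44 autophagy genes were 24 rises and 7 falls, with a median of 0.30; WIPI1, an early autophagosome protein, read 6.82, 7.05 and 6.77 with ethanol and 9.11, 9.30 and 9.33 with TPA, and MITF, a lysosome and osteoclast transcription factor, rose by 2.54 ± 0.17. Of the ligase genes FBXO5, an inhibitor of the anaphase-promoting complex, fell from 10.15, 10.13 and 9.97 to 6.12, 6.09 and 6.13, and FBXO32, the muscle-wasting ligase atrogin-1, rose from 4.45, 4.52 and 4.55, below background, to 7.70, 7.83 and 7.60. BAG3, a chaperone partner in selective autophagy, rose by 1.81 ± 0.10, and the chaperone HSPA4L fell by 3.37 ± 0.15 to below background.

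Signalling and membrane traffic leaned upward, with 169 rises and 83 falls among 445 genes. The share that changed was 56.6% against 43.2% of all genes, and 77% against 73.7% without genes below the median level. Of 111 SNARE, synaptotagmin and sorting nexin genes 49 rose and 8 fell, and of 57 RAB GTPases 24 rose and 10 fell. RAB7B, a late endosomal RAB of monocytes, read 5.74, 5.79 and 5.93 with ethanol and 9.72, 9.72 and 9.47 with TPA, and RAB27A, which docks granules, fell by 1.80 ± 0.08. DOCK4, an activator of RAC and RAP GTPases, read 4.80, 4.82 and 4.66 and 10.61, 10.73 and 10.55, from below background. Of 71 phosphoinositide enzymes 30 rose and 18 fell; PIK3R5, the p101 subunit of PI3K gamma, rose by 2.94 ± 0.08 and PIK3R3 fell by 1.87 ± 0.21. Cyclic nucleotide enzymes held 9 rises and 8 falls among 45, or 37.8% against 43.2% of all genes. In cyclic AMP signalling PRKAR2B, a regulatory subunit of protein kinase A, fell by 2.55 ± 0.12, and the adenylyl cyclase ADCY4 rose by 2.22 ± 0.16. The phosphatase PTPN14 rose from 6.61, 6.35 and 6.57 to 9.95, 10.30 and 9.86, and PTPN22, a brake on lymphoid receptors, fell by 2.50 ± 0.16 to below background. Of 17 clock genes 5 rose and 5 fell, or 58.8% against 43.2% of all genes, with a median of -0.03. BHLHE40 and NFIL3, 2 of the risers, rose by 2.67 ± 0.09 and 1.63 ± 0.12.

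The response of the empty vector cells differed from that of the EVI1 cells at 1.98% of the genes tested (interaction contrast in limma). Among the 576 genes that met the rule for naming, 34 differed: 29 had the same direction and a smaller change in EVI1 cells, 4 a larger change, and 1 the opposite sign. Most of these genes were named for their wide change in the empty vector cells, whose arrays also enter the difference, so the choice of genes favours a smaller change in EVI1 cells and nothing is read from that tally. Without ethanol replicate 1 that count of 34 was 15, and without ethanol replicate 3 it was 17. GPR34 rose by 7.05 in empty vector and 5.52 in EVI1 cells, with a difference of -1.53 ± 0.20 (adjusted p = 0.00179). SLC19A1 was -2.0 against -1.02, a difference of 0.98 ± 0.12 (adjusted p = 0.00114). KCNE1, a regulatory potassium channel subunit, was one of the 4 with a larger change, at 4.04 against 5.67 (difference 1.63 ± 0.34, adjusted p = 0.0277), from ethanol values below background.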

How the data were processed

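Total RNA was labelled from 250 ng by a 3' in vitro transcription protocol and read on arrays of 54675 probe sets. The authors deposited log2 values from RMA, run in Affymetrix Expression Console 1.3 by the account of the submitters' processing notes, which do not say whether the 12 arrays shared 1 run. The raw scans were not used here. Probe sets were named from the platform annotation: 41097 had 1 gene, 1801 several and 11777 none, and 62 were controls. Each of 19775 genes was read by the single-gene probe set whose mean across the 12 arrays was highest; 5543 of these have a suffix for probes shared with other sequences. A model with 4 group means was fitted to all 12 arrays with limma 3.58.1 in R 4.3.3 (lmFit and eBayes, 8 residual degrees of freedom), with p-values adjusted by Benjamini-Hochberg over all genes. The script was tested on simulated data. The design text of the series names no test.

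The comparison, its 86 lists in 7 themes and 6 marker lists were chosen with earlier results of these data known. Names that matched a family's letters but are antisense transcripts or other genes (43) were taken out of the family. Genes were named by rule: per list the 2 widest rises and 2 widest falls without overlap and above the median level, the brightest gene with a 95% interval within 0.5 of no difference, the 8 widest each way per theme, and all members of 7 short lists; 576 genes met it and a part of them is given. Motifs were searched on both strands in the 250 bases before each RefSeq start. Alternatives were a fit of the 6 arrays alone, the replicate number as a block, a filter on dim genes, other choices of probe set, median centring, trended and robust variances, array weights, and leaving out each array. The number of arrays limits the precision.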

Additional observations from a re-analysis of the deposited data

Results flagged for a closer look

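Among the genes given above, the TPA response differed between the EVI1 and empty vector cells for 19 (interaction contrast in limma, adjusted p below 0.05 over all genes). Differences are the EVI1 response minus the empty vector response. For genes that rose in the empty vector cells they were -0.94 for ADGRE2, -1.08 for AMPD3, -0.61 for BHLHE40, -1.05 for DOCK4 and -1.16 for GPAT3. GPR34 had -1.53, MERTK -0.69, MTF1 -0.87, PIK3R5 -0.59 and ZNF366 -1.63, and KCNE1 differed the other way, by 1.63. For genes that fell the difference was 0.79 for ASS1, 1.01 for BCL11A, 0.52 for FKBP5, 0.78 for IMPDH2, 0.98 for SLC19A1 and 0.50 for SLC39A3. JAG1 and PRKAR2B, which fell in the empty vector cells, fell further in EVI1 cells, with differences of -1.19 and -1.01.

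Probe sets without a gene name lay outside the comparison of genes. Of 11721 tested by the same fit, 858 were higher and 1117 lower with TPA, or 16.9%, and 281 and 383 of them by at least 1.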

How the results depend on the processing

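Between 7860 and 8153 genes changed when any of the 6 arrays was left out, against 8535. The other alternatives that tested all 19775 genes gave between 7951 and 8779. When dim genes were left out 7290 of 9888 changed, or 73.7% against 43.2%. Counts per theme stayed within 1.5 times apart from non-coding RNA, which had 159 calls of 260 genes tested, against 366, when dim genes were left out. The same filter left 3140 genes, against 10854, with an interval within 0.5 of no difference, or 31.8% of 9888 against 54.9% of 19775; the cause was not tested. It also cut calls of dim lists such as potassium channels (7 against 14) and osteoclast markers (1 of the 1 left in). The 34 differences in response among named genes became 63 with array weights, 52 with the replicate block and 15 to 32 without an array; the cause was not tested. Of the genes given above PPAT and MT1G changed sign with the brightest probe set that has no suffix for shared probes, to 0.17 and 0.13. Over all 576 named genes that choice reversed 15 and ended the call of 22, and the mean of all probe sets reversed 5 and ended 19. The labels do not say whether arrays with the same replicate number shared a day or a culture. Deviations from the ethanol and TPA means correlated at 0.157, 0.105 and 0.079 over genes for replicates 1, 2 and 3. Each was higher than with any other number. With the replicate block 8779 genes changed and 570 of 576 named genes kept their call. Whether the arrays are paired by number was not tested, and the main fit did not pair them. Low signal limits the size of differences from below 5.07: 50 named genes had 1 group there and 55 both.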
